A study of Mus musculus with 12 samples.

Results

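Apolipoproteins are the protein parts of the particles that carry lipids in blood. The 10 genes described here, Apoa1, Apoa2, Apoa4, Apoa5, Apob, Apoc1, Apoc2, Apoc3, Apoe and Apom, were chosen by gene symbol, and each is represented by its brightest probe on average over 12 arrays. They had 16 of the 45281 probes, 5 of them had more than 1 probe, and all 10 were among the 12463 named genes above background. Illumina arrays had been hybridised with RNA of hepatocytes, macrophages and sinusoidal endothelial cells (SEC), the cells that line the liver's capillaries. The mice were wild-type C57Bl/6 males. Treated mice were given diethylnitrosamine (DEN), which hepatocytes convert into a DNA-damaging carcinogen, at 25 mg/kg into the peritoneum on postnatal day 25, and tumour growth was followed for 9 months. Controls were untreated and of matching age, and no allele or agent other than DEN is named in the labels. Each of the 6 groups held 2 arrays, and each DEN preparation combined 3 to 4 animals. Since nothing states that replicate arrays had separate sources, p-values reflect the spread of these arrays alone, which may be technical.

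The liver secretes triglycerides on very low density lipoprotein (VLDL) particles built around 1 large non-exchangeable protein, ApoB. It also makes ApoA1 and ApoA2, the main proteins of high density lipoprotein (HDL), and the small exchangeable proteins that steer particles in plasma. Among the latter ApoC2 activates lipoprotein lipase, ApoC3 slows lipolysis and uptake, ApoA5 favours lipolysis, and ApoE is the ligand through which receptors clear remnants. Macrophages secrete ApoE and, in mice, ApoC1.

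Levels are deposited log2 values, and differences are in log2 units ± SE with 2 arrays per group. The tests are limma's, two-sided, with Benjamini-Hochberg adjustment over 12463 genes at 0.05. The values were scaled so that nearly the same distribution recurs on every array, from 7.19 through a median of 7.41 to a maximum of 15.19. A level near the top therefore reflects the probe's rank on its array: Apoc1 on an untreated hepatocyte array and Apoa1 on a DEN hepatocyte array each had 7 brighter probes and the same value, 15.01. Between 14368 and 21552 probes per array exceeded background. Replicate arrays correlated with r from 0.991 to 0.998, and their differences had an SD of 0.14 (untreated) and 0.17 (DEN) in hepatocytes, against 0.07 to 0.10 elsewhere. Since 1 spread is shared by all groups, the SE of a gene is the same in each DEN comparison. The untreated preparations carried their defining transcripts: hepatocytes had the higher level of 19 of 19 measured hepatocyte markers against either other cell type. Macrophages led hepatocytes for 13 of 13 Kupffer cell markers and SEC for 11 of 13, and SEC led macrophages for 17 of 18 SEC markers. Kupffer cell markers were nonetheless bright in SEC, with a summed linear signal of 106000 to 109000 untreated and 92500 to 93000 with DEN, against 214000 to 217000 in untreated macrophages. Their part in the SEC levels of Apoe and Apoc1 was not tested. Albumin's probe was dim even in untreated hepatocytes (9.20).

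With DEN the apolipoproteins moved differently in each cell type. In hepatocytes Apoa4 rose 5.21-fold while Apoa5, Apob and Apoc3 fell by more than 1 log2 unit each, and Apoa1 and Apoa2 did not pass. In macrophages Apoc1 fell 20.5-fold and Apoe 2.33-fold. In SEC Apoa1 rose 12.6-fold, with rises of Apoa2, Apoc3, Apom and Apoa4. There 0 of the 10 passed as lower, where only 0.995% of all genes did. In all 3 cell types markers of other cells moved in the same arrays. Of the preparations' own markers, 15 of 19 hepatocyte markers fell in hepatocytes and 12 of 13 Kupffer cell markers fell in macrophages. In SEC 2 of 18 SEC markers rose and 0 fell. The values of all these markers are given below by cell type.

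**Figure D1:**
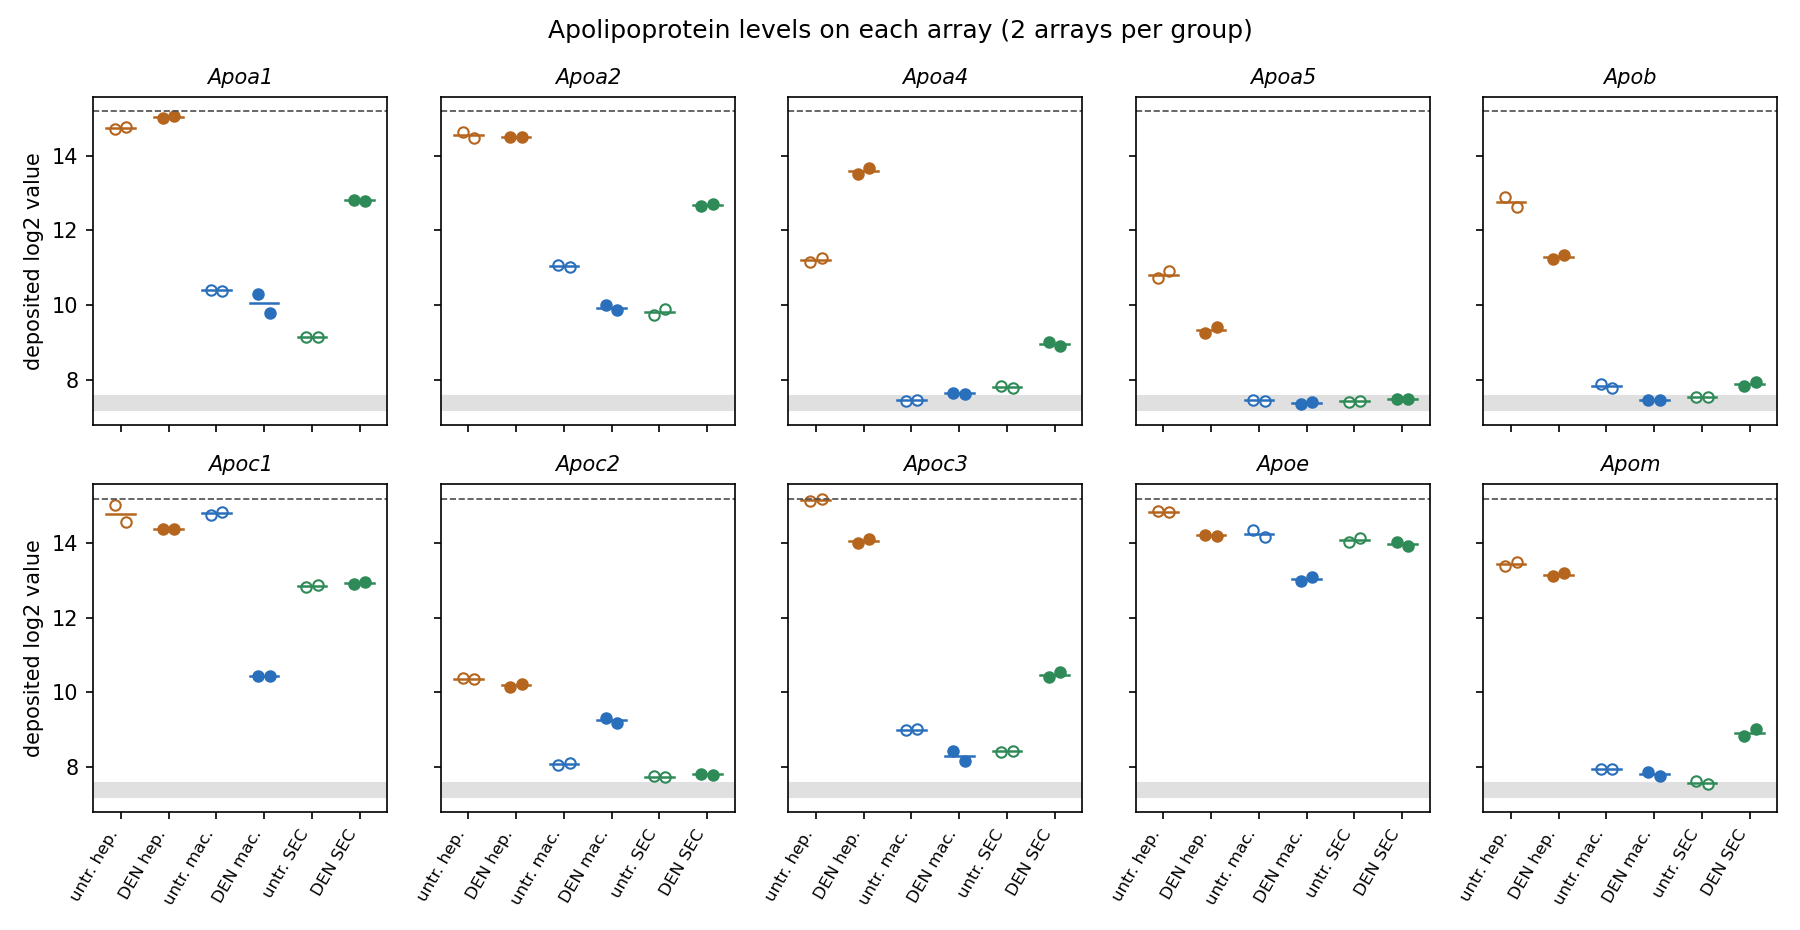
Deposited log2 value of each apolipoprotein (y axis) on both arrays of each of the 6 groups (x axis; open points untreated, filled points DEN, short lines group means). The dashed line is the array maximum of 15.19 and the grey band reaches from the array minimum of 7.19 to the highest background limit of 7.57. Apoc3 in untreated hepatocytes lies at or just below the maximum, and Apoa5 lies in the grey band outside hepatocytes.

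The genes lie in 2 clusters and 3 single places in the mouse genome. On chromosome 9 the order is Apoa1, Apoc3, Apoa4, Apoa5, on chromosome 7 it is Apoc2, Apoc4, Apoc1, Apoe, and Apoa2, Apob and Apom lie on chromosomes 1, 12 and 17. The chromosome 9 neighbours moved apart in DEN hepatocytes, so the 250 bases before the start of Apoa1, Apoa4 and Apoa5 are shown, with those of Apob, which fell like Apoa5. They are from RefSeq (GRCm38.p6), 5′ to 3′ on the + strand, and RefSeq promoters were matched for 8 of the 10 genes. Capitals mark the letters TATAAA, the core of a TATA box, and CAAAGNNCA, letters shared by many sites of the nuclear receptor HNF4A, each sought on both strands.
Apoa1, chr9:46228380-46228629: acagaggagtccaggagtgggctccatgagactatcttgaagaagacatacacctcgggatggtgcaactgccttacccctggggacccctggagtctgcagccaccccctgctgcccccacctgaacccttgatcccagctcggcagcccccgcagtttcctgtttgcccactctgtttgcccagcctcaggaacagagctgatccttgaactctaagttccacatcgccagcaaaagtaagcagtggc
Apoa4, chr9:46240594-46240843: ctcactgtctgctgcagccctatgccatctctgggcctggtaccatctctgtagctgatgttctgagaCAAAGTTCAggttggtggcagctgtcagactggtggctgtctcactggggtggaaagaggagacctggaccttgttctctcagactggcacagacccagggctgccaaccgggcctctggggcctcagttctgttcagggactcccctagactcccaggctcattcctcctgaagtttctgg
Apoa5, chr9:46268358-46268607: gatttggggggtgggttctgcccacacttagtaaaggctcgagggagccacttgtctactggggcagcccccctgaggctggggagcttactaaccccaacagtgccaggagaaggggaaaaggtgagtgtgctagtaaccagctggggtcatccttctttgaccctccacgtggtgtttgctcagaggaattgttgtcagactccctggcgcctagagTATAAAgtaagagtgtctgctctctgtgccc
Apob, chr12:7977427-7977676: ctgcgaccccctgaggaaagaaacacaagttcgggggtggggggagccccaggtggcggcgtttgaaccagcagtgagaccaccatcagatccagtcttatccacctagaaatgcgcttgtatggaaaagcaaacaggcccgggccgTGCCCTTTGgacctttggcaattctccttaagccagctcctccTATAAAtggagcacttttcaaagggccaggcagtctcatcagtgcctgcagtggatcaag
In the Apoa4 window CAAAGNNCA began 182 bases before the start. The Apoa5 window held TATAAA 31 bases before the start, and the Apob window held TATAAA at 60 and CAAAGNNCA, on the other strand, at 103. The Apoa1 window held neither. Among 32851 promoters of the same length, 12.4% held TATAAA and 5.49% held CAAAGNNCA. The letters AGGTCA, part of many nuclear receptor sites, which 14.0% of promoters held, was in none of the windows shown, and no 2 matches overlapped. These matches describe letters and were not related to any measured binding.

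In untreated liver 9 of the 10 apolipoproteins were higher in hepatocytes than in macrophages and 0 lower, where 27.8% of all genes were higher and 36.5% lower. Against SEC 10 were higher and 0 lower, with 28.3% and 38.9% of all genes. The median difference of the 10 was 3.63 against macrophages and 4.07 against SEC, where the median of all genes was -0.04 and -0.05. Against macrophages Apoc3 stood 71.5-fold, Apom 45.4-fold and Apob 30.5-fold higher, and Apoe 1.51-fold. The order of these folds has little meaning, since Apoc3 was at or just below the maximum in hepatocytes and others were near background in macrophages: with background subtracted Apoa4 gave 7.11, Apom 7.05, Apob 6.73, Apoc3 6.71 and Apoa5 6.68 log2 units. Of the non-parenchymal cells, macrophages had 7 apolipoproteins higher than SEC and 1 lower, beside 23.1% and 22.2% of all genes, and a median of 0.36 against 0.00. The lower gene was Apoa4, and the call of Apob was lost without the first macrophage or either SEC array (adjusted p = 0.0643 to 0.117) and that of Apoc2 with its second probe (0.05, adjusted p = 0.684). Of 19 hepatocyte markers 11 were also higher in untreated macrophages than in SEC and 0 lower, and the part of hepatocyte RNA in these differences was not tested.

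Several values stood close to the array maximum. In untreated hepatocytes 5 apolipoproteins lay within 1 log2 unit of it, in DEN hepatocytes 4 and in untreated macrophages 2, against 89 probes on an array. The other 3 groups had 0. Apoc3 was the brightest probe of all on the second untreated hepatocyte array, at 15.19, so a higher level there could not have been recorded.

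Apob encodes the scaffold of VLDL and chylomicrons. In hepatocytes it was at 12.91 and 12.62 on the untreated arrays and at 11.25 and 11.35 on the DEN arrays. Both DEN arrays lay below both untreated arrays, and Apob fell by 1.47 ± 0.08, or 2.77-fold (adjusted p = 3.67e-08). In macrophages it was at 7.88 and 7.78 untreated and at 7.45 and 7.46 with DEN. That change of -0.38 ± 0.08 (adjusted p = 0.00337) lay close to background, and it was -2.00 with background subtracted. In SEC the levels were 7.54 and 7.55 untreated and 7.84 and 7.95 with DEN. The SEC difference of 0.35 ± 0.08 did not pass (adjusted p = 0.0511), although the arrays did not overlap. It passed with background subtracted (1.69, adjusted p = 0.000817), with cyclic loess, with SEC fitted alone and without any 1 hepatocyte array. From high to low the groups were untreated hepatocytes, DEN hepatocytes, DEN SEC, untreated macrophages, untreated SEC and DEN macrophages, of which DEN SEC and untreated macrophages overlapped.

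Apoa1 encodes the main HDL protein and the acceptor of cholesterol from ABCA1. Its hepatocyte levels were 14.73 and 14.77 untreated and 15.01 and 15.05 with DEN. The DEN arrays were the higher ones, with only 7 and 5 probes brighter than Apoa1, which leaves little room below the maximum. The difference of 0.28 ± 0.12 did not pass (adjusted p = 0.0554). It passed with cyclic loess (0.43, adjusted p = 0.00834), with hepatocytes fitted alone (adjusted p = 0.0167), with a trended and robust spread (adjusted p = 0.0407) and without either DEN macrophage array (adjusted p = 0.000407). In macrophages Apoa1 was at 10.41 and 10.38 untreated and at 10.29 and 9.79 with DEN. The DEN arrays stood apart from each other, and the change of -0.35 ± 0.12 (adjusted p = 0.0345) rests on the second of them and did not pass under 11 of 20 alternatives: without that array the change was -0.10 (adjusted p = 0.227), and without the first it was -0.60. In SEC the levels were 9.16 and 9.15 untreated and 12.82 and 12.79 with DEN. The DEN arrays were far above the untreated ones, and Apoa1 rose by 3.65 ± 0.12, or 12.6-fold (adjusted p = 9.05e-09). The order of the groups was DEN hepatocytes, untreated hepatocytes, DEN SEC, untreated macrophages, DEN macrophages and untreated SEC, with no overlap between neighbours.

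Apoa2 encodes the second protein of HDL. In hepatocytes it was at 14.63 and 14.47 untreated and at 14.49 and 14.50 with DEN. The groups overlapped, and the difference was -0.05 ± 0.07 (adjusted p = 0.536). In macrophages it was at 11.07 and 11.03 untreated and at 9.99 and 9.86 with DEN, and it fell by 1.12 ± 0.07, or 2.18-fold (adjusted p = 2.87e-07). On the SEC arrays its level was 9.74 and 9.91 untreated and 12.66 and 12.70 with DEN. As for Apoa1, both DEN SEC arrays were higher than all macrophage arrays, and the rise was 2.86 ± 0.07, or 7.25-fold (adjusted p = 2.41e-09). A second Apoa2 probe gave -0.15, -1.30 and 3.64 in hepatocytes, macrophages and SEC. DEN macrophages and untreated SEC, the groups with the lowest levels, overlapped, as did the 2 hepatocyte groups.

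Apom encodes an HDL protein that carries sphingosine-1-phosphate. Hepatocyte levels were 13.40 and 13.50 untreated and 13.11 and 13.20 with DEN. The change of -0.29 ± 0.07 (adjusted p = 0.0037) was small and seen with the brightest probe only: the second probe changed by 0.05 (adjusted p = 0.755). It did not pass with background subtracted (-0.30, adjusted p = 0.25). In macrophages Apom was at 7.95 and 7.94 untreated and at 7.87 and 7.76 with DEN, and the difference of -0.13 ± 0.07 did not pass (adjusted p = 0.179). In SEC it was at 7.62 and 7.54 untreated, near background, and at 8.82 and 9.01 with DEN. It rose there by 1.34 ± 0.07, or 2.53-fold (adjusted p = 5.19e-07), by 0.61 with the second probe and by 3.56 with background subtracted. Neighbouring groups did not overlap in the order of untreated hepatocytes, DEN hepatocytes, DEN SEC, untreated macrophages, DEN macrophages and untreated SEC.

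Apoa4 encodes an exchangeable protein of chylomicrons and HDL that the mouse liver makes as well as the gut. It was the only apolipoprotein of the 10 that passed as higher in DEN hepatocytes. There its levels were 11.16 and 11.27 untreated and 13.53 and 13.67 with DEN. The groups lay far apart, and the rise was 2.38 ± 0.06, or 5.21-fold (adjusted p = 9.07e-11), with 2.54 and 2.63 for its other probes. In macrophages it was at 7.42 and 7.47 untreated, above background on 1 of 2 arrays, and at 7.66 and 7.63 with DEN. That rise of 0.20 ± 0.06 (adjusted p = 0.0302) was lost with the second probe (adjusted p = 0.087), with the mean of its probes, with a trended and robust spread and without any 1 macrophage array, and it was 1.18 with background subtracted. In SEC the levels were 7.84 and 7.78 untreated and 9.01 and 8.91 with DEN. The rise was 1.15 ± 0.06, or 2.23-fold (adjusted p = 7.65e-07), and 2.48 with background subtracted. Neighbouring groups did not overlap in the order of DEN hepatocytes, untreated hepatocytes, DEN SEC, untreated SEC, DEN macrophages and untreated macrophages.

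Apoa5 encodes a scarce plasma protein that promotes lipolysis by lipoprotein lipase. In hepatocytes it was at 10.73 and 10.91 untreated and at 9.25 and 9.42 with DEN. It fell by 1.48 ± 0.07, or 2.79-fold (adjusted p = 6.27e-09), with both DEN arrays below both untreated ones. Elsewhere it stood at or near background, at 7.47 and 7.43 in untreated and 7.36 and 7.40 in DEN macrophages. In SEC it was at 7.41 and 7.44 untreated and at 7.47 and 7.49 with DEN. It was above background on 0 of 2 DEN macrophage arrays and on 1 of 2 untreated arrays of macrophages and of SEC, and neither difference passed (adjusted p = 0.514 and 0.93). DEN hepatocytes stood above all non-parenchymal groups, whose order has little meaning so near background.

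Apoc3 encodes the inhibitor of lipolysis and remnant uptake. Its hepatocyte levels were 15.14 and 15.19 untreated and 13.99 and 14.12 with DEN. The second untreated array was at the array maximum and the first had 1 brighter probe. As recorded, Apoc3 fell by 1.11 ± 0.08, or 2.16-fold (adjusted p = 2.61e-07), with the untreated level limited by that maximum. In macrophages it was at 8.99 and 9.02 untreated and at 8.42 and 8.17 with DEN, and it fell by 0.71 ± 0.08, or 1.63-fold (adjusted p = 2.85e-05). SEC levels were 8.40 and 8.43 untreated and 10.42 and 10.54 with DEN. The SEC arrays did not overlap, and the rise was 2.06 ± 0.08, or 4.17-fold (adjusted p = 4.31e-08). In the order untreated hepatocytes, DEN hepatocytes, DEN SEC, untreated macrophages, untreated SEC and DEN macrophages, the last pair overlapped. Untreated hepatocytes stood 108-fold above untreated SEC as recorded (adjusted p = 8.32e-14), under the same limit.

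Apoc2 encodes the activator of lipoprotein lipase. In hepatocytes it was at 10.38 and 10.35 untreated and at 10.15 and 10.23 with DEN. The change of -0.17 ± 0.05 (adjusted p = 0.014) was small and turned with the second probe, which rose by 0.21 (adjusted p = 0.0316). It did not pass with background subtracted, with hepatocytes fitted alone or without the first array of either group (adjusted p = 0.0504 to 0.0893). In macrophages the levels were 8.06 and 8.11 untreated and 9.31 and 9.19 with DEN. With this probe Apoc2 rose by 1.16 ± 0.05, or 2.24-fold (adjusted p = 1.83e-08), and its second probe, near background at 7.50 and 7.51, changed by 0.01 (adjusted p = 0.945). The macrophage rise of Apoc2 rests on 1 of 2 probes. SEC arrays had it at 7.76 and 7.73 untreated and at 7.82 and 7.80 with DEN, a difference of 0.06 ± 0.05 that did not pass (adjusted p = 0.81). From high to low the groups were untreated hepatocytes, DEN hepatocytes, DEN macrophages, untreated macrophages, DEN SEC and untreated SEC, without overlap between neighbours.

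**Figure D2:**
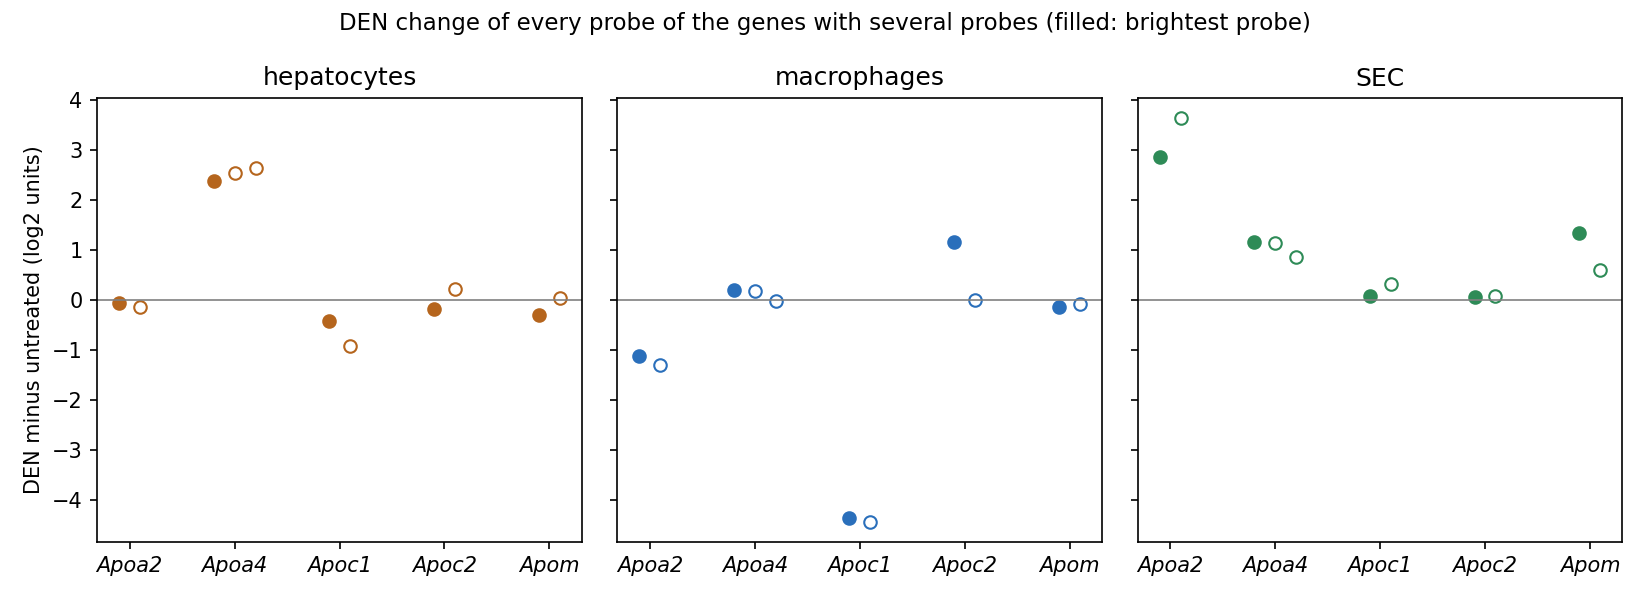
DEN minus untreated in log2 units (y axis) for every probe of the 5 apolipoproteins with several probes (x axis) in hepatocytes, macrophages and SEC; filled points are the probes used, open points the others. The probes of Apoc2 part in macrophages (1.16 and 0.01), while those of Apoc1 stay together (-4.35 and -4.43).

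Apoc1 encodes a small protein of HDL and VLDL that inhibits lipases and transfer proteins. In hepatocytes it was at 15.01 and 14.56 untreated and at 14.38 and 14.37 with DEN. The untreated arrays differed from each other as much as the groups did, and the change of -0.41 ± 0.11 (adjusted p = 0.00668) became -0.18 without the first of them and -0.64 without the second. It did not pass with cyclic loess (-0.27, adjusted p = 0.0788) or with hepatocytes fitted alone (adjusted p = 0.0635), and the second probe fell by 0.92. In macrophages Apoc1 was at 14.75 and 14.84 untreated and at 10.45 and 10.43 with DEN. The untreated arrays were close to the array maximum and the DEN arrays far below, and Apoc1 fell by 4.35 ± 0.11, or 20.5-fold (adjusted p = 1.6e-10). In SEC it was at 12.83 and 12.87 untreated and at 12.90 and 12.95 with DEN, and the difference of 0.08 ± 0.11 did not pass (adjusted p = 0.947). Its second probe rose there by 0.33 (adjusted p = 0.0102).

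Apoc1 was also the apolipoprotein that did not pass as higher in untreated hepatocytes than in untreated macrophages. Untreated hepatocytes minus macrophages was -0.01 ± 0.11 (adjusted p = 0.952), with overlapping arrays. The sign depended on the hepatocyte array: it was -0.24 (adjusted p = 0.00548) without the first and 0.22 (adjusted p = 0.00841) without the second, and the second probe gave 0.97 (adjusted p = 8.75e-08). Untreated macrophages stood above untreated SEC by 1.94 ± 0.11, or 3.85-fold (adjusted p = 7.33e-08). The order of the other groups was DEN hepatocytes, DEN SEC, untreated SEC and DEN macrophages, without overlap.

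Apoe encodes the ligand of the LDL receptor family, made by hepatocytes and by macrophages. Its hepatocyte levels were 14.86 and 14.83 untreated and 14.21 and 14.20 with DEN. It fell by 0.64 ± 0.07, or 1.56-fold (adjusted p = 1.01e-05), with narrow spread in both groups. In macrophages it was at 14.35 and 14.16 untreated and at 12.99 and 13.08 with DEN. It fell by 1.22 ± 0.07, or 2.33-fold (adjusted p = 1.2e-07), and DEN macrophages lay below every other group. In SEC it was at 14.04 and 14.14 untreated and at 14.02 and 13.93 with DEN, and the difference of -0.11 ± 0.07 did not pass (adjusted p = 0.649). Untreated hepatocytes were 1.51-fold above macrophages (adjusted p = 1.95e-05) and 1.69-fold above SEC (adjusted p = 2.11e-06). Untreated macrophages and SEC differed by 0.17 ± 0.07, which did not pass (adjusted p = 0.0834), and by 0.07 and 0.27 (adjusted p = 0.0175) without the first and the second macrophage array. In the order of levels untreated macrophages and DEN hepatocytes overlapped, followed by untreated SEC, DEN SEC and DEN macrophages.

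**Figure D3:**
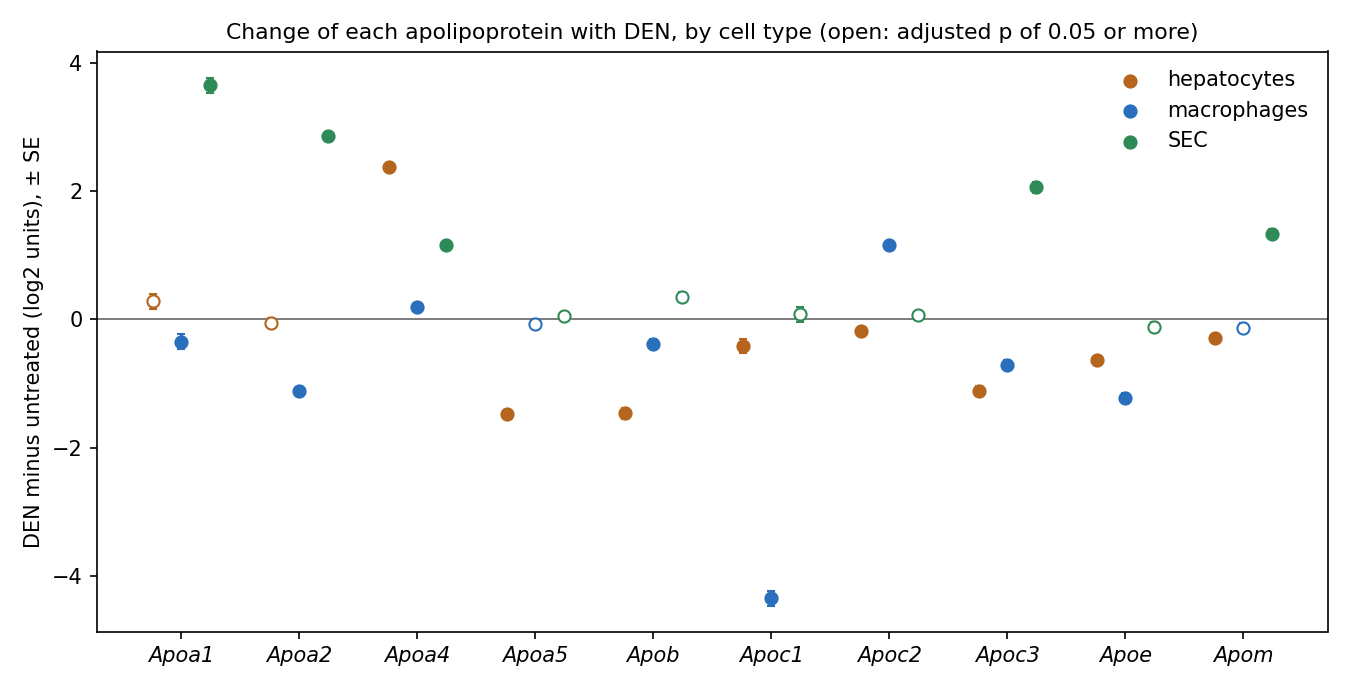
DEN minus untreated in log2 units ± SE (y axis) for each of the 10 apolipoproteins (x axis) in hepatocytes, macrophages and SEC, 2 arrays per group; filled points passed at an adjusted p of 0.05 and open points did not. Apoa4 is the filled hepatocyte point above 0 (2.38), Apoc1 in macrophages lies lowest (-4.35), and 5 SEC points are filled, all above 0.

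Counted over the 10 genes, 1 was higher and 7 lower in DEN hepatocytes, where 31.7% and 36.0% of all genes were. The lower calls of Apoc1, Apoc2 and Apom did not hold under every alternative. The median change of the 10 was -0.35, beside -0.02 for all genes. The hepatocyte preparation of DEN-treated mice also changed in its markers. Of 19 hepatocyte markers 15 were lower and 0 higher, and their summed linear signal went from 305000 to 306000 on the untreated arrays to 195000 to 202000 with DEN. Blood and immune cell markers rose in the same arrays: 10 of 12 neutrophil markers, 8 of 10 monocyte markers, 7 of 7 erythroid and platelet markers and 8 of 8 T, NK and B cell markers. So did 8 of 13 Kupffer cell markers (1 lower), 12 of 18 SEC markers (2 lower), 8 of 11 stellate cell markers (1 lower) and 6 of 6 cholangiocyte markers. Neutrophil markers summed to 2110 to 2120 untreated and 34700 to 35000 with DEN, and erythroid and platelet markers to 2690 to 3010 and 123000 to 126000. Their part in the apolipoprotein changes was not tested, and in bulk RNA fewer cells of a type and less RNA per cell cannot be told apart.

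In macrophages 2 apolipoproteins were higher and 6 lower, beside 18.6% and 24.3% of all genes, with a median change of -0.37 against -0.02. The higher calls, of Apoa4 and Apoc2, and the lower call of Apoa1 did not hold under every alternative. Kupffer cell markers fell in the same arrays. Of 13 measured 12 were lower and 0 higher, led by Clec4f (-5.32 ± 0.07, adjusted p = 1e-12), Cd163 (-5.21) and Vsig4 (-5.00). Their summed signal went from 214000 to 217000 untreated to 24800 to 25300 with DEN. Of 19 hepatocyte markers 9 were lower and 0 higher, with sums of 20000 to 21800 untreated and 8840 to 9400 with DEN. Apoa1, Apoa2, Apob and Apoc3, which fell there too, stood 4.36, 3.50, 4.93 and 6.16 log2 units higher in untreated hepatocytes than in untreated macrophages. SEC markers were lower for 13 of 18 and higher for 1, stellate cell markers lower for 7 of 11 and higher for 1. Neutrophil markers were higher for 12 of 12, monocyte markers for 8 of 10, erythroid and platelet markers for 7 of 7 and T, NK and B cell markers for 8 of 8. Neutrophil markers summed to 9480 to 9540 untreated and 53800 to 66300 with DEN. The part of these markers' cells in the falls of Apoc1 and Apoe was not tested.

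In SEC 5 apolipoproteins were higher and 0 lower, beside 2.56% and 0.995% of all genes, with a median change of 0.75 against -0.02. Of all passing genes 72.0% were higher, 83.1% with cyclic loess and 58.5% with SEC fitted alone. Hepatocyte markers rose in the same arrays: of 19 measured 10 were higher and 0 lower, with a median change of 1.51. They included Ahsg (3.53), Ambp (2.87), Serpina1c (2.63), Hpx (2.51) and Ttr (2.51). The summed hepatocyte marker signal was 8900 to 8970 on the untreated and 38400 to 38500 on the DEN SEC arrays, and 13 and 16 of the 19 lay above background on both arrays. Cps1 was at 7.53 in untreated and 7.57 in DEN SEC, and at 13.49 in untreated and 8.87 in DEN hepatocytes. Alb, Fgb and Tat were below background on every SEC array, but their probes were dim in hepatocytes too, at 9.20, 7.73 and 7.70 untreated and 8.39, 7.43 and 7.26 with DEN. Of 18 SEC markers 2 were higher and 0 lower, with sums of 197000 to 198000 untreated and 191000 to 196000 with DEN. Neutrophil markers rose for 8 of 12 and erythroid and platelet markers for 6 of 7, with Hba-a1 at 4.59. The part of hepatocyte RNA in the SEC rises was not tested.

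**Figure D4:**
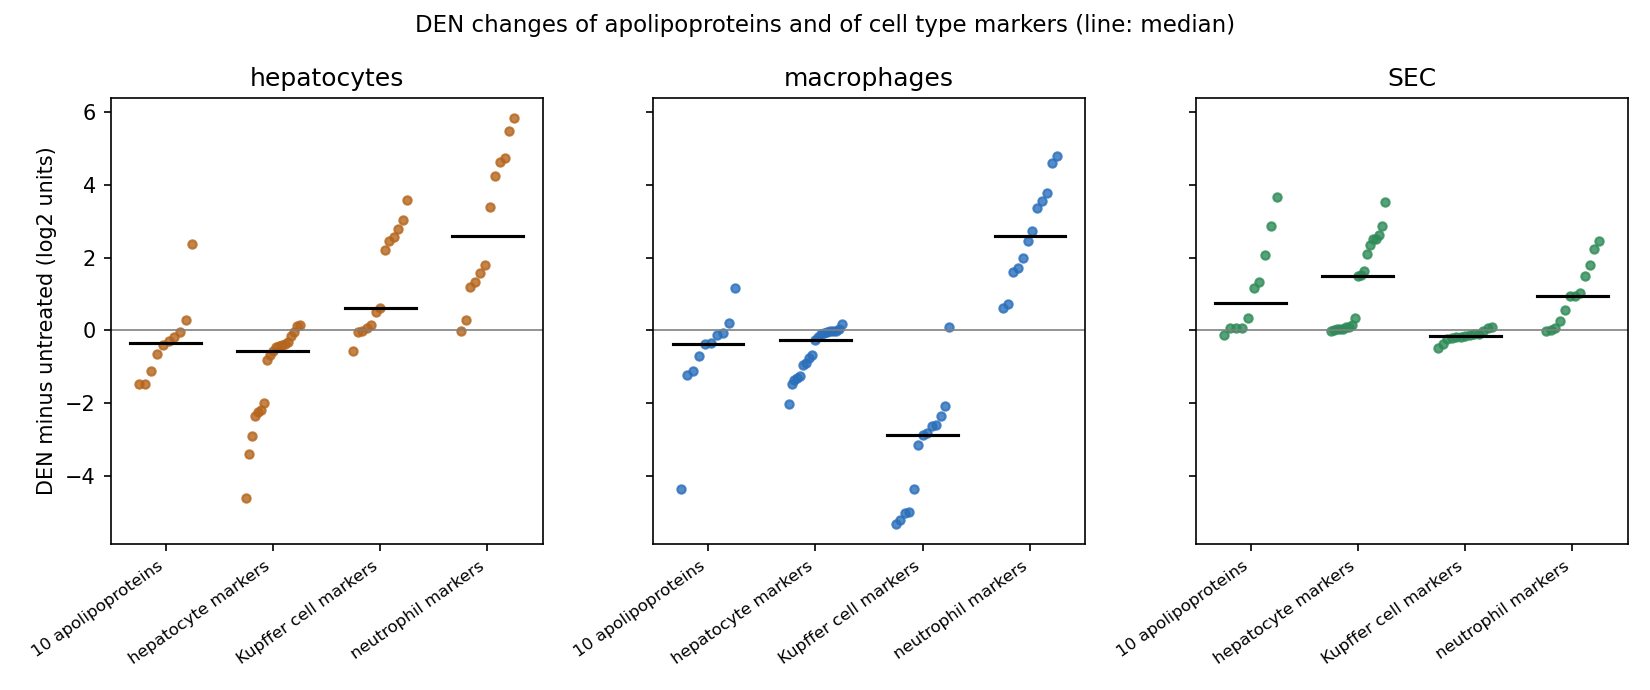
DEN minus untreated in log2 units (y axis) for the 10 apolipoproteins and for hepatocyte, Kupffer cell and neutrophil markers (x axis; each point a gene, black lines medians) in hepatocytes, macrophages and SEC. In SEC the apolipoproteins (median 0.75) and hepatocyte markers (1.51) lie above 0, and in macrophages Kupffer cell markers lie at a median of -2.87.

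The DEN changes differed between cell types for most apolipoproteins, tested as a difference of differences. The hepatocyte response exceeded the macrophage response for 5 and was below it for 4 (30.8% and 32.2% of all genes). Of these 4, Apob and Apoc3 did not pass and changed sign with background subtracted (0.47 and 0.11, adjusted p = 0.113 and 0.715). The hepatocyte response exceeded the SEC response for 1, Apoa4, and was below it for 9 (29.5% and 30.1%). The Apoa4 call was lost with background subtracted (-0.013, adjusted p = 0.998). The macrophage response exceeded the SEC response for 1, Apoc2, and was below it for 8 (15.3% and 17.7%). These contrasts share arrays and are not independent. Against SEC the hepatocyte calls of Apoc1 (-0.49) and Apoc2 (-0.24) were lost when single SEC arrays were left out (adjusted p = 0.0597 to 0.0627), and that of Apoc1 with cyclic loess or background subtracted (adjusted p = 0.0698 and 0.0531).

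Within the clusters neighbours moved in different directions in some comparisons and in the same direction in others. In DEN hepatocytes the chromosome 9 genes changed by 0.28 (Apoa1, not passing), -1.11 (Apoc3), 2.38 (Apoa4) and -1.48 (Apoa5). In DEN SEC Apoa1, Apoc3 and Apoa4 rose by 3.65, 2.06 and 1.15, and Apoa5 was at 0.05. On chromosome 7, in DEN macrophages, Apoc2 was at 1.16 with 1 of its 2 probes, Apoc4, another VLDL apolipoprotein, fell by 0.24 (adjusted p = 0.0121), Apoc1 fell by 4.35 and Apoe fell by 1.22. In DEN SEC only Apoc4 of these 4 passed, with a rise of 1.18 (adjusted p = 5.86e-07).

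Genes for the assembly and secretion of lipoproteins were mostly lower in DEN hepatocytes: of 16 measured 13 fell and 1 rose, with a median of -0.81 where that of all genes was -0.02 in each DEN comparison and 36.0% of all genes fell and 31.7% rose. Cideb, which loads VLDL with lipid, fell by 2.47 ± 0.08, Creb3l3 fell by 2.23 ± 0.08, and Sar1b, the GTPase of the carriers that export large particles from the endoplasmic reticulum, fell by 2.01 ± 0.07 (adjusted p = 2.04e-10, 1.13e-09 and 9.26e-10). Creb3l3 encodes CREBH, known in mouse liver to drive Apoa4. Creb3l3 fell in the arrays in which Apoa4 rose, and a relation between these changes was not tested. The riser was Apobec1, the enzyme that edits Apob RNA (1.19), named after its value was seen. In macrophages 10 fell and 0 rose (24.3% and 18.6% of all genes), led by the chaperone Pdia3 (-1.24), Apobec1 (-0.84) and the cargo receptor Lman1 (-0.77), and in SEC only Pdia3 passed (-0.87), where 0.995% of all genes fell. The marker changes given above were in the same arrays, and their part in these lists was not tested.

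Transcription factors known to act on apolipoprotein genes had 9 of 15 lower and 3 higher in DEN hepatocytes (36.0% and 31.7% of all genes), with a median of -0.35. Arnt, a partner of hypoxia and aryl hydrocarbon receptors, rose by 2.84 ± 0.08 and Cebpb, a factor of the acute phase, by 2.15 ± 0.05 (adjusted p = 1.57e-10 and 3.05e-11). The bile acid receptor Nr1h4, known to repress Apoc3, fell by 1.91 ± 0.05 (adjusted p = 1.09e-10). Hnf4a, which drives many apolipoprotein genes, fell by 1.61 ± 0.08 in hepatocytes (adjusted p = 8.92e-09), a gene outside the naming rule there and named after its value was seen. In SEC Hnf4a was the factor that passed, with 0.38 ± 0.08 (adjusted p = 0.0208), from 7.57 to 7.95. It was at 11.76 in untreated hepatocytes, and hepatocyte markers rose in the same SEC arrays. The part of hepatocyte RNA in that rise was not tested. In macrophages 3 factors were higher and 3 lower, shares close to the 18.6% and 24.3% of all genes. Among them were Cebpb (0.93) and Cebpa (-0.57), and Nr1h4 was at least 1.69-fold lower. How these factors relate to the apolipoprotein changes was not tested.

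Genes of cholesterol efflux and of the liver X receptor had 8 of 13 lower and 0 higher in DEN macrophages (24.3% and 18.6% of all genes), with a median of -0.42. Nr1h3, the liver X receptor known in macrophages to drive Apoe and the genes beside it, fell by 2.89 ± 0.08, from 12.51 to 9.62 (adjusted p = 3.98e-10). The lysosomal lipase Lipa (-1.98) and the sterol transporter Abcg1 (-0.94) fell too. In the same arrays 12 of 13 Kupffer cell markers fell, with a median of -2.87. Neither the part of these markers' cells in the Nr1h3 fall nor its relation to Apoe and Apoc1 was tested. In DEN hepatocytes 5 were higher and 6 lower, not far from the 31.7% and 36.0% of all genes. Srebf1, a driver of lipid synthesis, was at least 2.72-fold lower, and Lpcat3, which remodels phospholipids, and Abcg5, which exports sterols into bile, fell (-1.37 and -1.35). In SEC 1 passed, the cholesterol carrier Npc2 (0.28, adjusted p = 0.0409), where 2.56% of all genes rose.

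Enzymes and partners that remodel lipoproteins in plasma had 4 of 12 higher and 6 lower in DEN hepatocytes, where 31.7% and 36.0% of all genes were, the higher share being close to that of all genes. Lpl, the lipoprotein lipase that ApoC2 activates and ApoC3 restrains, rose by 3.67 ± 0.05, from 8.84 to 12.51 (adjusted p = 9.1e-13). It was brighter in untreated macrophages (13.73) and untreated SEC (13.14). With DEN it was at 12.14 in macrophages and 13.02 in SEC. Most Kupffer cell and SEC markers rose in the DEN hepatocyte arrays. The part of these markers' cells in the Lpl rise was not tested. The plasma phospholipase Pla2g7, also a macrophage product, was at least 4.32-fold higher, and Lcat, which esterifies HDL cholesterol with ApoA1 as cofactor, fell by 1.68 ± 0.05 (adjusted p = 2.04e-10). In macrophages 6 fell and 0 rose (24.3% and 18.6% of all genes), with Pltp, the phospholipid transfer protein (-2.11), Lpl (-1.59) and the HDL enzyme Pon1 (-1.08) leading. In SEC Pon1 alone passed, with a rise of 1.30, where 2.56% of all genes rose. Pon1 was at 13.80 in untreated hepatocytes, and hepatocyte markers rose in the same SEC arrays. The part of hepatocyte RNA in that rise was not tested.

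Receptors and uptake genes had 6 of 13 higher and 3 lower in DEN hepatocytes, beside 31.7% and 36.0% of all genes. Lsr, a receptor for triglyceride-rich particles, fell by 1.96, the sorting receptor Sort1 rose by 1.95 and Sdc1, the proteoglycan that clears remnants, fell by 1.43. In macrophages 2 rose, the sorting receptors Sorl1 (1.85) and Sort1 (1.24), and 4 fell, with the scavenger receptor Msr1 at -1.47, beside 18.6% and 24.3% of all genes. Markers of several cell types moved in the same hepatocyte and macrophage arrays, and their part in these changes was not tested. In SEC 0 of 13 passed by limma, where only 2.56% of all genes rose and 0.995% fell, and 1 had an unadjusted p under 0.05.

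By likeness of level over the 6 groups, each gene's own mean removed, the closest genes of Apoa1 were Ahsg and Kng1, with root mean square differences of 0.203 and 0.344 log2 units. Those of Apoa2 were Serpina1d (0.115) and Ttr (0.144), and those of Apom were Mug2 (0.120) and Itih1 (0.127). Apoa5 had Klkb1 (0.052) and Ces1e (0.065), and Apob had Ces1f (0.073) and Cyp2c67 (0.108). Apoc3 had Azgp1 (0.221) and Vtn (0.249), and Apoe had Dnajc3 (0.146) and Mrpl50 (0.169). Apoc2 had Osgin1 (0.182) and H2bc15 (0.188). Apoa4 and Apoc1 had looser matches, Fgl1 (0.402) and Alas2 (0.469) for the first and C2 (0.243) and Ephx1 (0.696) for the second. No apolipoprotein of the 10 was among another's closest pair. The complement gene C2 changed by -3.82 in macrophages and by 0.05 in SEC, where Apoc1 changed by -4.35 and 0.08. In hepatocytes the 2 genes had opposite signs, 0.15 for C2 and -0.41 for Apoc1.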

How the data were processed

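RNA of 3 liver cell types from DEN-treated and untreated mice was hybridised to 12 Illumina arrays, 2 for each of 6 groups. The values deposited by the authors are on a log2 scale, as read from the values, and lumi is the tool named per the submitters' processing notes, without version or transform. The arrays share nearly 1 distribution and are not background-subtracted, so changes are compressed near background and near the maximum. A non-normalized table was left out, since its 24 columns carry names found in no label.

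Background was set on each array at the 95th percentile of 1490 olfactory and vomeronasal receptor probes, and the 24163 probes above it on both arrays of any group were kept. The platform annotation gave 1 symbol to 34885 of 45281 probes, several to 18 and none to 10378. Symbols were updated through RefSeq (GRCm38.p6; 10 changed). The brightest probe stood for each gene (12463 genes).

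limma 3.58.1 in R 4.3.3 fitted 6 group means (lmFit, eBayes, 6 residual degrees of freedom), after tests on simulated data. Contrasts compared DEN with untreated arrays per cell type, untreated cell types with each other, and DEN changes between cell types. No batch is named in the labels. Same-numbered arrays were checked for pairing: within a cell type their deviations correlated at 0.0096, -0.036 and 0.025. Between cell types of the same treatment the correlations ran from -0.040 to 0.070. The number was not used as a pairing. The number of arrays limits the precision, with a median SE of 0.066. Alternatives were the mean of probes, the second brightest probe, no filter, background subtraction (linear floor 16), cyclic loess within cell types, fits of the cell types compared only, a trended robust spread, a replicate block, and leaving out each array. Figures were drawn with matplotlib 3.10.9 in Python 3.11.15.

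The apolipoproteins and all lists were chosen with earlier results of these data known. All 10 are reported. Of each list, up to 3 passing genes with the largest DEN change are named per cell type, and for each apolipoprotein the 2 most similar genes. Exceptions are stated.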

Additional observations from a re-analysis of the deposited data

Results flagged for a closer look

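The DEN change differed between cell types for most apolipoproteins by limma's test of the difference of differences, and those that passed are given here in log2 units. The hepatocyte change minus the macrophage change was 0.63 for Apoa1, 1.07 for Apoa2, 2.18 for Apoa4, -1.42 for Apoa5 and -1.09 for Apob. It was 3.95 for Apoc1, -1.34 for Apoc2, -0.40 for Apoc3 and 0.58 for Apoe, with adjusted p from 3.26e-09 to 0.00944. Apom did not pass (-0.16). Of all genes 30.8% passed as higher and 32.2% as lower in this contrast. With background subtracted Apob was at 0.47 and Apoc3 at 0.11, and neither passed (adjusted p = 0.113 and 0.715).

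The hepatocyte change minus the SEC change was -3.37 for Apoa1, -2.91 for Apoa2, 1.23 for Apoa4, -1.53 for Apoa5 and -1.82 for Apob. It was -0.49 for Apoc1, -0.24 for Apoc2, -3.17 for Apoc3, -0.53 for Apoe and -1.63 for Apom, with adjusted p from 1.54e-09 to 0.0196. With background subtracted Apoa4 was at -0.013 (adjusted p = 0.998). Here 29.5% of all genes passed as higher and 30.1% as lower.

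The macrophage change minus the SEC change was -4.00 for Apoa1, -3.98 for Apoa2, -0.96 for Apoa4, -0.73 for Apob and -4.43 for Apoc1. It was 1.10 for Apoc2, -2.77 for Apoc3, -1.11 for Apoe and -1.47 for Apom, with adjusted p from 4.91e-10 to 0.00065. Apoa5 did not pass (-0.12). Beside these, 15.3% of all genes passed as higher and 17.7% as lower. The Apoc2 values are those of 1 probe, and its second probe gave other signs.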

How the results depend on the processing

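Over 20 alternatives, 1734 of the values for single apolipoproteins kept their side of the threshold and, but for 7 that did not pass and changed sign, their direction, 38 fell short of it, 16 newly passed and 12 turned. Many of these estimates could not move by design. Leaving out an array of another cell type kept the estimate of a DEN comparison. The probe settings kept the estimates of the 5 genes with 1 probe. The counts of passing apolipoproteins stayed within 1.5 times. With a replicate block they were 8, 8 and 5 for DEN in hepatocytes, macrophages and SEC, 9, 10 and 8 between untreated cell types and 9, 10 and 9 for the differences of DEN changes, as without it. The second brightest probe turned Apoc2 (0.21 in hepatocytes, 0.20 for hepatocytes minus macrophages, 0.13 for hepatocytes minus SEC, -0.069 for macrophages minus SEC) and Apom in hepatocytes (0.046). The mean of a gene's probes gave 0.020 for Apoc2 in hepatocytes. For Apoc1, untreated hepatocytes minus macrophages was 0.48 with the mean of probes and 0.97 with the second probe, and leaving out arrays gave -0.24 to 0.22. Background subtraction turned the hepatocyte minus macrophage difference of Apob (0.47) and Apoc3 (0.11) and the hepatocyte minus SEC difference of Apoa4 (-0.013). Beyond the difference between probes, the causes were not tested. Signals near background limit Apoa5, Apob, Apoa4 and Apom outside hepatocytes. The array maximum limits Apoa1, Apoa2, Apoc1, Apoc3 and Apoe in hepatocytes, and Apoc1 and Apoe in untreated macrophages.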

Other observations

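Other apolipoproteins measured on the arrays had 9 of 12 lower and 1 higher in DEN hepatocytes, with a median change of -0.96 (36.0% of all genes were lower and 31.7% higher). Of the APOL family of intracellular and secreted lipid-binding proteins, Apol7a fell by 3.28 ± 0.08 and Apol9b by 2.39 ± 0.09, while Apol11b was at least 6.49-fold higher (adjusted p = 2.81e-11, 8.85e-10 and 6.06e-12). In SEC 5 of the 12 rose and 0 fell (2.56% and 0.995% of all genes), led by Apoh, the phospholipid-binding beta-2-glycoprotein (1.73 ± 0.08), the HDL protein Apof (1.35 ± 0.07) and Apoc4 (1.18 ± 0.06), in the arrays in which hepatocyte markers rose. In macrophages 2 rose and 5 fell (18.6% and 24.3% of all genes). Apoh fell there by 0.90 and Apof by 0.89, and Apon was at least 1.23-fold lower. Cell type markers moved in the arrays of all these comparisons, and their part in the changes of these genes was not tested.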
